A study of Mus musculus with 6 samples.

Results

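Progranulin (PGRN) is a secreted glycoprotein encoded by Grn and built of repeated granulin domains. The 9 genes described here are Grn and 8 genes whose products bind, carry, protect or work beside it: the sorting and uptake receptors Sort1 and Lrp1, the TNF receptors Tnfrsf1a and Tnfrsf1b, the protease inhibitor Slpi, the lysosomal partner Psap and the lysosomal membrane proteins Gpnmb and Tmem106b. They were chosen by gene name from the 54532 genes of the expression table, each gene had 1 row, and all 9 were expressed highly enough to be tested.

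Sortilin, the product of Sort1, binds extracellular PGRN and delivers it to lysosomes, where proteases cut it into granulins. Prosaposin, the product of Psap, binds PGRN and carries it to the same compartment through the mannose 6-phosphate receptor and the endocytic receptor LRP1, and is itself cut into saposins that help enzymes break down sphingolipids. Secretory leukocyte protease inhibitor (SLPI) binds PGRN and shields it from elastase, and PGRN has been described as a ligand of the TNF receptors. TMEM106B and GPNMB are membrane proteins of lysosomes, and loss of PGRN is known for lysosomal disease of the brain and for an altered state of macrophages and microglia.

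Polyadenylated transcripts of macrophages were sequenced from wild type (WT) mice and from mice without PGRN (PGRN KO), 3 libraries each, numbered 1 to 3 and 4 to 6. All libraries came from macrophages that the labels describe as taken from the peritoneal cavity of C57BL/6J mice, plated at 2000000 cells per well and challenged for 6 hours with Candida albicans, with 1 fungal cell added per macrophage. The label of the WT libraries contains the word control, but these cells were challenged too, and no unchallenged cells were analysed here. The comparison thus addresses how the absence of PGRN bears on the transcripts of its partners in the presence of the fungus. The PGRN KO mice carry a germline deletion and were bought from a supplier, whereas the WT mice came from another source, so that genotype and source cannot be told apart. No age is given for these mice, and nothing says that the libraries came from separate animals or cultures, so that p-values measure the spread between these libraries, which may be technical. The text of the study names bone marrow-derived macrophages as the sequenced cells and gives a different dose of fungus for them, so that neither the source of the cells nor the dose is settled. The labels were followed.

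The libraries held 15996786 to 17551619 counted fragments. PGRN KO replicate 6 stood apart from replicates 4 and 5 in a way that followed gene length. On the log2 scale it differed from their mean by a median of 0.38 over the 1777 tested genes of at most 1776 bases and by a median of -0.32 over the 1777 of 6949 bases or more. Results are therefore also given without it. All 8 macrophage markers were tested, with 162 to 195 FPKM for Adgre1 (F4/80) but no more than 9.95 FPKM for Fcgr1 and 3.84 FPKM for Mertk in any library. Their summed level, mostly Lyz2 and Cd14, was 11618 to 12561 FPKM in WT and 10445 to 14377 FPKM in PGRN KO. Csf1r was lower in PGRN KO (log2 difference -0.38, limma adjusted p 0.0178, but 0.109 on the TPM scale) and Mertk was higher (0.81, limma adjusted p 0.00640). Both also passed an adjusted p of 0.05 without replicate 6. With all libraries Cd14, Itgam and Fcgr1 did not (limma adjusted p 0.143, 0.0848 and 0.455). Without replicate 6 they passed as lower (log2 differences -0.55, -0.26 and -0.55, limma adjusted p 0.00330, 0.00670 and 0.0213). Adgre1, Cd68 and Lyz2 passed in neither fit. Cd14 also passed as lower after correction for gene length (limma adjusted p 0.00841) and on the TPM scale (0.0262), unlike Itgam and Fcgr1. FPKM are fragments per kilobase of gene model, scaled to the size of the library, so that levels of different genes can be compared. Of the 6 markers of resident large peritoneal macrophages, Prg4 was at 10.4 to 16.2 FPKM, Gata6 at 3.78 to 5.07 FPKM and Icam2 at 2.94 to 5.43 FPKM. Timd4, Alox15 and Selp were at no more than 0.204 FPKM in any library.

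The promoters of the targeted gene and of the partners with the largest log2 differences are shown first, as 300 bases of RefSeq sequence from 250 bases before to 50 bases after the start of the transcript, on GRCm38.p6. Sequences were found for 8 of the 9 genes, with 2 windows for Psap. The gene without a sequence was Sort1, which was thus not searched for motifs. Capitals mark the matches to the searched motifs on either strand. Grn lies on the plus strand at chr11:102430257-102430556, Psap on the plus strand at chr10:60277378-60277677, and Gpnmb on the plus strand at chr6:49036268-49036567.
Grn: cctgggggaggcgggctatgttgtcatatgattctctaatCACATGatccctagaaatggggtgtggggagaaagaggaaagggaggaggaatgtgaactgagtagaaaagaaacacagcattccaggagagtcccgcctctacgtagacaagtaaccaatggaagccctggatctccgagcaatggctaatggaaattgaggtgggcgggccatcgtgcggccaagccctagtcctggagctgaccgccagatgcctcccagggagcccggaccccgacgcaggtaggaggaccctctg
Psap: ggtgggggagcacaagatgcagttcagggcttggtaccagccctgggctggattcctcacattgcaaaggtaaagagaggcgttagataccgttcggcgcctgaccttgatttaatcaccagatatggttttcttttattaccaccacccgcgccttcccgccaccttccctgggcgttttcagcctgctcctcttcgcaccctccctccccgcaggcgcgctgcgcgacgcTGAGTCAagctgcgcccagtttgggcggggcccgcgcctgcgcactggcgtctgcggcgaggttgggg
Gpnmb: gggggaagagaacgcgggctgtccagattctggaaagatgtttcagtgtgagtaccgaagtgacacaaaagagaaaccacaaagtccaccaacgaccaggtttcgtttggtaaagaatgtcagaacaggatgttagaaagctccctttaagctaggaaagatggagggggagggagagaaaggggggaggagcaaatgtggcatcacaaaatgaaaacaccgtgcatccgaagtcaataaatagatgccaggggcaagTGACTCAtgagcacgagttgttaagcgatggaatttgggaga

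A total of 4 motifs was searched on both strands, and no match overlapped another in these windows. The AP-1 site TGACTCA is bound by Fos and Jun factors. It began at position 8 of the Gpnmb transcript and, on the other strand, at position -18 of the Psap window shown, counting the first base of the transcript as 0 and those before it as negative. Over all 32851 promoter windows of the same length, 5.20% hold this site. The E-box CACGTG is bound by MiT/TFE factors among others. Slpi held it at position -146, and 7.15% of all windows do. The E-box variant CATGTG was held by Grn at position -210, on the other strand, and is found in 14.2% of all windows. The interferon-stimulated response element was searched as a pair of GAAA separated by any 2 bases. Tnfrsf1b held it at position -10, as do 3.44% of all windows. The second Psap window and those of Lrp1, Tmem106b and Tnfrsf1a held none of the 4 motifs. A match describes the letters only.

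Levels in WT spanned from 1.95 FPKM on average for Sort1 to 3374 FPKM for Slpi. In WT libraries the order from high to low was Slpi, Psap, Gpnmb, Tnfrsf1b, Grn, Lrp1, Tnfrsf1a, Tmem106b and Sort1. Each gene lay above the next in all 3 libraries except for Gpnmb and Tnfrsf1b, whose ranges overlapped and of which Gpnmb was the higher in 2 of 3 libraries. In PGRN KO libraries Psap and Slpi overlapped at the top, followed by Gpnmb, Tnfrsf1b, Lrp1 and Tnfrsf1a, which overlapped each other, Sort1, Tmem106b and Grn. The places of Sort1 and Tmem106b, the members with the lowest levels in WT, were thus exchanged.

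**Figure D1:**
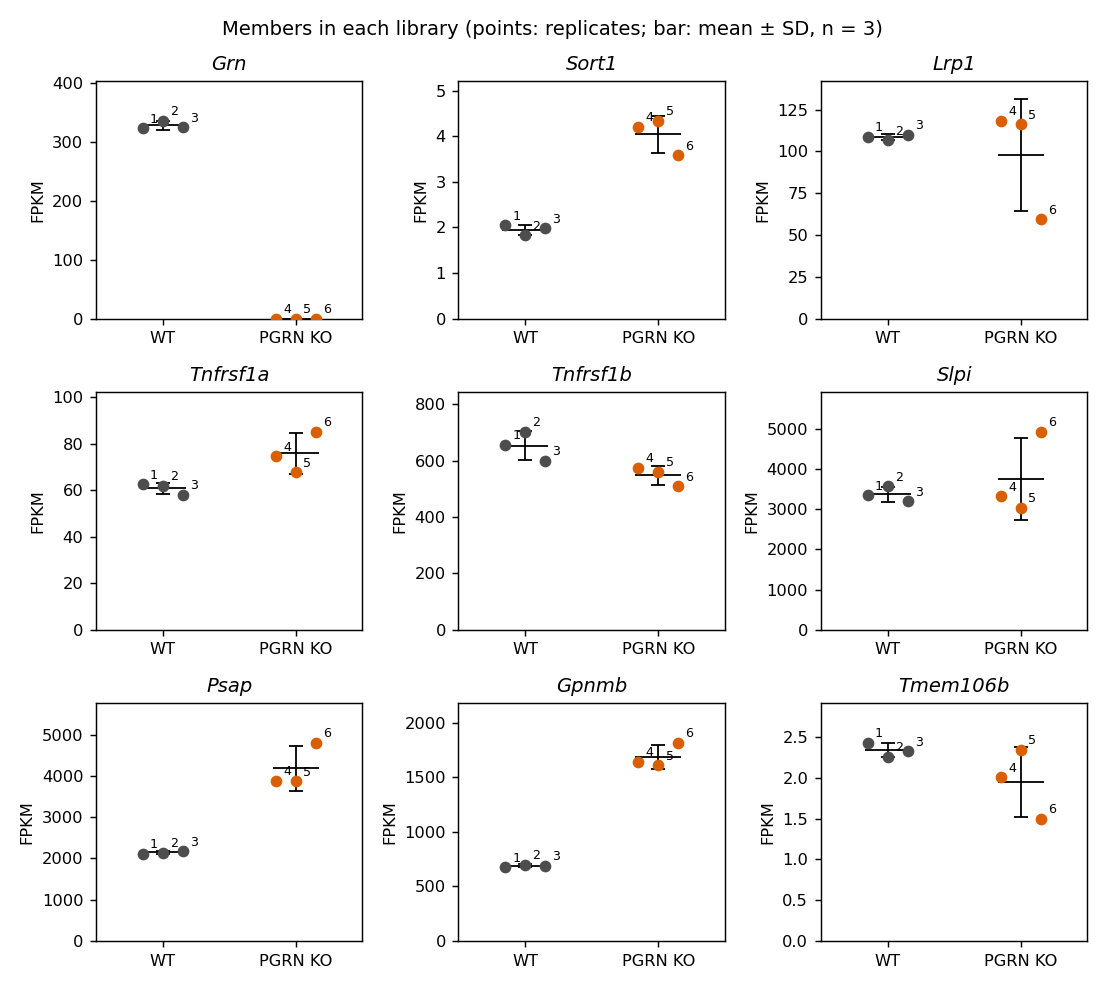
Level of each of the 9 genes in each library in FPKM (linear axes from 0), with points for replicates, a horizontal bar for the mean and whiskers for the SD (n = 3 per genotype). Sort1, Psap and Gpnmb lie above the WT range in each PGRN KO library, Grn is near 0 in PGRN KO, and Lrp1 and Slpi show replicate 6 apart from replicates 4 and 5.

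Genotypes were compared with limma on log2(FPKM + 1), a scale that understates the change of genes with low FPKM, over 8882 genes with a mean of at least 1 FPKM, and p-values were adjusted over all of them by the Benjamini-Hochberg method. Of the 9 members, 4 passed an adjusted p of 0.05, 3 higher and 1 lower in PGRN KO, whereas 24.2% of all tested genes passed. The lower one was Grn, the targeted gene. Of the 8 others, the 3 that passed were all higher (Gpnmb, Psap and Sort1), whereas 10.4% of tested genes were higher and 13.8% lower. On a TPM scale, where all libraries have the same sum, 5 members passed, Tnfrsf1a being added to those higher, against 10.3% of tested genes higher and 6.68% lower. Without PGRN KO replicate 6 the same 5 passed, against 16.2% higher and 25.1% lower. Separate ranges in WT and PGRN KO were seen for 6 members and for 48.8% of all tested genes. The median log2 fold change was 0.13 over the members and -0.03 over all tested genes.

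The deletion itself was checked before the partners. Grn (ENSMUSG00000034708, chromosome 11, 102430315 to 102437048, GRCm38) had 18800, 17294 and 20372 fragments in WT replicates 1, 2 and 3, or 323, 337 and 325 FPKM. The PGRN KO replicates 4, 5 and 6 had 1, 0 and 1 fragments, or 0.0166, 0 and 0.0167 FPKM. The groups lay far apart, with each library on the side that its label gives. The 2 fragments in PGRN KO against 56466 in WT put Grn at 0.00328% of its WT level (0.000397% to 0.0118%, the exact 95% interval of counting error). The limma adjusted p was 1.17e-08. The gene model shares 68 of its 3474 exon bases with Fam171a2 on the opposite strand, and the sources used here do not say whether counting used strand.

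Among the receptors that take up PGRN, transcripts of the sorting receptor were higher in PGRN KO. Sort1 (ENSMUSG00000068747, chromosome 3, 108284082 to 108361511) was at 2.05, 1.83 and 1.98 FPKM in WT replicates 1, 2 and 3, against 4.20, 4.34 and 3.59 FPKM in PGRN KO replicates 4, 5 and 6. All PGRN KO libraries were above all WT libraries, and replicate 6 was the lowest of the 3. The mean rose 2.07-fold, from 1.95 ± 0.109 to 4.04 ± 0.402 FPKM (SD, n = 3 each). On the log2(FPKM + 1) scale the difference was 0.77 ± 0.10 (SE, 95% interval 0.54 to 1.00), with a limma adjusted p of 0.00352, and without PGRN KO replicate 6 it was 0.84 with 0.000880. The level rested on 205 to 622 fragments per library. The gene model shares 338 of its 7569 exon bases with Gm12523 on the opposite strand.

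Lrp1, the endocytic receptor that takes up prosaposin with bound PGRN, was decided by 1 library. Lrp1 (ENSMUSG00000040249, chromosome 10, 127538161 to 127621148, minus strand) was at 109, 107 and 110.1 FPKM in WT replicates 1, 2 and 3. PGRN KO replicates 4 and 5 had 118 and 116 FPKM but replicate 6 had 59.5 FPKM, so that 2 PGRN KO libraries lay above and 1 below all WT libraries. The fitted log2 difference was -0.21 ± 0.26 (SE, 95% interval -0.82 to 0.39; limma adjusted p 0.574). Without replicate 6 it changed sign, to 0.11 (95% interval 0.0007 to 0.22; limma adjusted p 0.0977). With a gene length of 17717 bases Lrp1 is the longest of the 9 gene models, and after each library was corrected for gene length its log2 difference was 0.03 (limma adjusted p 0.864).

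The library effect on the members is drawn in the plot of replicate 6 against gene length. Slpi, whose gene model of 1180 bases is the shortest, was 0.63 higher in replicate 6 than the mean of replicates 4 and 5 on the log2 scale, and Lrp1 was 0.97 lower (a log2 difference of -0.97). The members that passed lay between these lengths. The log2 difference of replicate 6 was 0.31 for Psap, 0.16 for Gpnmb and -0.20 for Sort1.

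**Figure D2:**
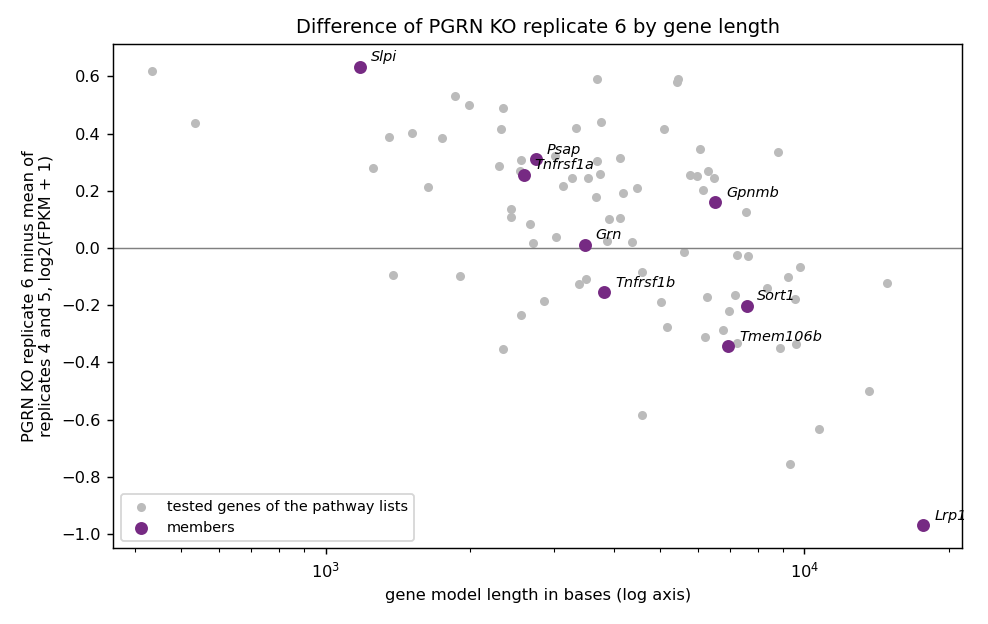
Difference of PGRN KO replicate 6 from the mean of replicates 4 and 5 on log2(FPKM + 1), against gene model length in bases (log axis), for the 9 members (purple) and the other tested genes of the pathway lists (grey). Slpi, at 0.63, is the shortest member and Lrp1, at -0.97, the longest.

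The TNF receptors lay on opposite sides of zero, and neither passed the threshold. Tnfrsf1a (ENSMUSG00000030341, chromosome 6, 125349362 to 125362484) encodes the TNF receptor with a death domain, and was at 62.5, 62.0 and 58.0 FPKM in WT, against 74.8, 67.7 and 85.2 FPKM in PGRN KO replicates 4, 5 and 6. The groups did not overlap. The log2 difference was 0.31 ± 0.11 (SE, 95% interval 0.05 to 0.56) and the limma adjusted p was 0.0784. It was at 0.0361 without PGRN KO replicate 6 (log2 difference 0.22), at 0.0334 after correction for gene length and at 0.0262 on the TPM scale, so that the call of Tnfrsf1a depends on the processing.

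Tnfrsf1b (ENSMUSG00000028599, chromosome 4, 145213463 to 145246870, minus strand) encodes the TNF receptor without a death domain. It was at 656, 702 and 600.2 FPKM in WT and at 574, 561 and 510 FPKM in PGRN KO, and here too the groups did not overlap. The log2 difference was -0.25 ± 0.11 (SE, 95% interval -0.51 to 0.01; limma adjusted p 0.137, and 0.0850 without PGRN KO replicate 6). A ratio of both genes within a library does not depend on the library's scaling. Tnfrsf1b was 10.5, 11.3 and 10.3 times as high as Tnfrsf1a in WT replicates 1, 2 and 3 and 7.68, 8.29 and 5.99 times as high in PGRN KO replicates 4, 5 and 6. The ranges did not overlap, but the ratio was chosen after its values were seen. The p of an exact two-sided permutation test was 0.1, the lowest possible with 3 libraries on each side. For a ratio chosen in this way the test cannot decide whether the genotypes differ.

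Slpi did not pass the threshold. Slpi (ENSMUSG00000017002, chromosome 2, 164354070 to 164389095, minus strand) was the highest member in WT, at 3353, 3571 and 3199 FPKM, and was at 3327, 3039 and 4932 FPKM in PGRN KO libraries. Replicates 4 and 5 lay within or below the WT range and replicate 6 above it. The log2 difference was 0.13 ± 0.20 (SE, 95% interval -0.34 to 0.59; limma adjusted p 0.665), and without replicate 6 it changed sign to -0.08 (95% interval -0.27 to 0.11; limma adjusted p 0.429).

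Psap, the precursor of the saposins and the lysosomal partner of PGRN, was higher in PGRN KO. Psap (ENSMUSG00000004207, chromosome 10, 60277627 to 60302597) was at 2113, 2136 and 2181 FPKM in WT replicates 1, 2 and 3, against 3877, 3865 and 4798 FPKM in PGRN KO replicates 4, 5 and 6. The lowest PGRN KO library was well above the highest WT library. The mean rose 1.95-fold, from 2143 ± 34.4 to 4180.1 ± 535 FPKM (SD, n = 3 each). The log2 difference was 0.96 ± 0.13 (SE, 95% interval 0.65 to 1.27; limma adjusted p 0.00452), and it was 0.85 (limma adjusted p 0.000461) without replicate 6, the highest of the 3. Psap took up 0.542% to 0.615% of all counted fragments in WT and 1.12% to 1.32% in PGRN KO, and its place among all genes by FPKM moved from 18 to 22 in WT libraries to 9 in each PGRN KO library. Of the 8882 tested genes, 1 had a larger rise in mean FPKM, and 162 had a larger log2 fold change.

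Gpnmb, a glycoprotein of lysosomes and of the cell surface, had the largest fold change of the members after Grn. Gpnmb (ENSMUSG00000029816, chromosome 6, 49036546 to 49070929) was at 675, 699 and 691 FPKM in WT replicates 1, 2 and 3, against 1641, 1610 and 1815 FPKM in PGRN KO replicates 4, 5 and 6. The groups lay far apart in relation to the spread within each. The mean rose 2.45-fold, from 689 ± 12.1 to 1689 ± 111 FPKM (SD, n = 3 each). The log2 difference was 1.29 ± 0.10 (SE, 95% interval 1.05 to 1.53; limma adjusted p 0.00119), and it was 1.24 (limma adjusted p 0.000273) without replicate 6. A total of 61 tested genes had a larger log2 fold change, and 4 had a larger rise in mean FPKM. By FPKM it stood at places 61 to 68 among all genes in WT libraries and at places 27 to 33 in PGRN KO libraries.

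Tmem106b encodes a protein of the lysosomal membrane whose variants modify disease in carriers of GRN mutations. Tmem106b (ENSMUSG00000029571, chromosome 6, 13069759 to 13089269) was at 2.43, 2.26 and 2.33 FPKM in WT and at 2.01, 2.35 and 1.50 FPKM in PGRN KO. The ranges overlapped, since replicate 5 lay within the WT range. The log2 difference was -0.19 ± 0.12 (SE, 95% interval -0.48 to 0.11; limma adjusted p 0.300) and -0.07 without replicate 6 (limma adjusted p 0.507). The level rested on 180 to 308 fragments per library, and a rise of 0.77 as for Sort1 would lie above this interval.

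**Figure D3:**
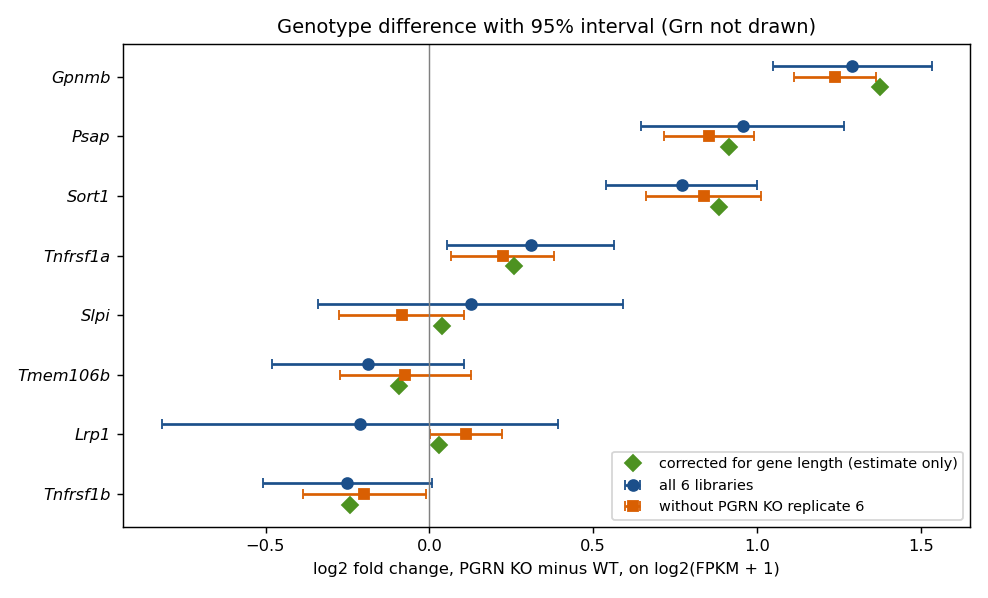
Difference of PGRN KO minus WT on log2(FPKM + 1) with its 95% interval for 8 members, with all 6 libraries (blue), without PGRN KO replicate 6 (orange) and after correction for gene length (green, estimate only); Grn, at -8.35, is not drawn. The intervals of Gpnmb, Psap, Sort1 and Tnfrsf1a lie above 0 in both fits, although the adjusted p of Tnfrsf1a is 0.0784 with all libraries, and the estimates of Lrp1 and Slpi change sign without replicate 6.

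Ratios between other members within a library were compared in the same way. Within a library, Gpnmb was 0.320, 0.327 and 0.317 times as high as Psap in WT and 0.423, 0.417 and 0.378 times as high in PGRN KO. Psap was 0.630, 0.598 and 0.682 times as high as Slpi in WT and 1.17, 1.27 and 0.973 times as high in PGRN KO. Lrp1 was 53.3, 58.2 and 55.7 times as high as Sort1 in WT and 28.2, 26.8 and 16.6 times as high in PGRN KO. Sort1 was 0.841, 0.809 and 0.850 times as high as Tmem106b in WT and 2.09, 1.85 and 2.39 times as high in PGRN KO. No range overlapped between genotypes in these ratios, which, like that of the TNF receptors, were chosen after their values were seen. All ratios together made 5 tests, and each exact two-sided permutation test gave p = 0.1 (0.1 after Benjamini-Hochberg adjustment), the smallest possible.

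**Figure D4:**
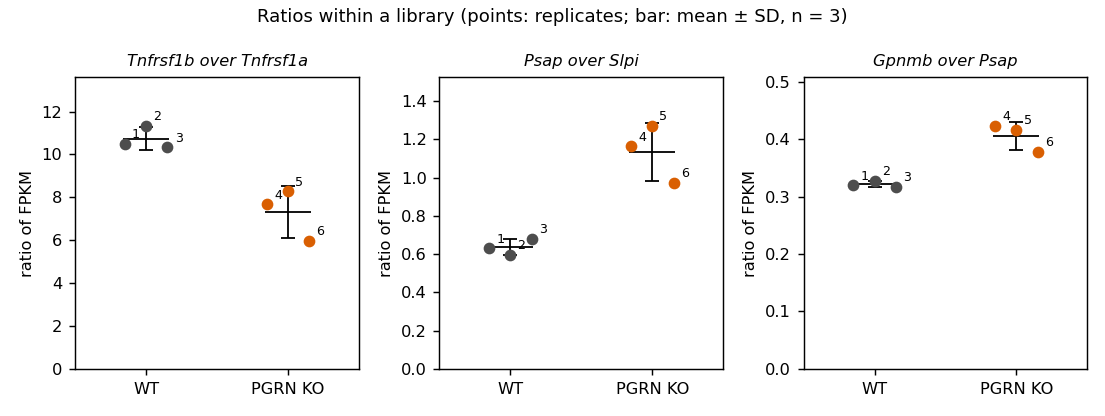
Ratio of FPKM of 2 genes within each library (linear axes from 0), with points for replicates, a bar for the mean and whiskers for the SD (n = 3 per genotype). The ratio of Tnfrsf1b to Tnfrsf1a is lower in every PGRN KO library than in the WT libraries, and the ratios of Psap to Slpi and of Gpnmb to Psap are higher.

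The other genes of the same pathways were examined in 9 lists with 100 genes in all, of which 77 were tested. Of these, 18 were higher and 12 lower in PGRN KO, 23.4% and 15.6% of the tested genes, beside 10.4% and 13.8% of all tested genes, and their median log2 fold change was 0.02. The split depended on scaling. On the TPM scale 18 were higher and 5 lower, beside 10.3% and 6.68% of all tested genes. With the sum of fragments as library size 25 were higher and 5 lower, beside 1179 and 695 of all 8882 tested genes. These counts changed when 1 library was left out, as did those over all tested genes. The count of 30 genes past the threshold was 7, 12 and 10 when WT replicates 1, 2 and 3 were left out singly. It was 15, 22 and 43 when PGRN KO replicates 4, 5 and 6 were. Over all 8882 tested genes, 2151 passed with all libraries, and 713, 855 and 883 without WT replicates 1, 2 and 3. Without PGRN KO replicates 4, 5 and 6 the number was 1390, 1601 and 3668. By direction, 331 to 1438 of all tested genes were higher and 382 to 2230 lower with 1 library left out. Of the 24 genes that the naming rule picked from the lists, 7 passed in every alternative run, namely Gga2, Glb1, Gm2a, Mmp9, Serpinb1a, Serpinb6a and Cd44. The others of the 24 lost their call in 1 to 9 of the alternatives. Mmp9 reached the mean of 1 FPKM needed for testing only through WT, so that its call is not on the same footing.

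Beside Sort1, the list of VPS10 and mannose 6-phosphate sorting had 8 tested genes, of which 1 was higher and 2 were lower (median log2 fold change -0.19). The numbers were 0 to 1 higher and 1 to 4 lower with 1 library left out. Over all tested genes, 10.4% were higher and 13.8% lower with all libraries. Gga2, an adaptor that carries sorting receptors from the Golgi to endosomes, fell from 5.63 ± 0.294 to 2.74 ± 0.225 FPKM (SD, n = 3 each; log2 difference -0.83, limma adjusted p 0.00224). Its relative Gga1 went the other way, from 17.2 ± 0.304 to 30.1 ± 5.85 FPKM (log2 difference 0.76, limma adjusted p 0.0103, and 0.0531 without WT replicate 1). Vps35, of the retromer that returns receptors from endosomes, fell from 23.3 ± 1.53 to 17.1 ± 2.43 FPKM (limma adjusted p 0.0428), a call kept in 9 of 18 alternatives. The mannose 6-phosphate receptors did not pass, with 182 and 185 FPKM for M6pr and 25.1 and 21.8 FPKM for Igf2r in WT and PGRN KO. Of the LDL receptor family, to which LRP1 belongs, none of the 5 tested genes passed (median -0.17).

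Among the enzymes and activators of saposin-assisted sphingolipid breakdown, 5 of 12 tested genes were higher and 1 was lower (median 0.23), beside 10.4% and 13.8% of all tested genes. The number higher was 2, 3 and 2 without WT replicates 1, 2 and 3, and 4, 4 and 6 without PGRN KO replicates 4, 5 and 6. Over all tested genes it was 331, 412 and 397, and 610, 739 and 1438, in the same order. Glb1, the lysosomal beta-galactosidase, rose from 31.4 ± 1.46 to 54.5 ± 7.43 FPKM (log2 difference 0.77, limma adjusted p 0.00577). Gm2a, the activator protein of GM2 breakdown, rose from 37.5 ± 1.02 to 59.5 ± 2.56 FPKM (log2 difference 0.65, limma adjusted p 0.00344). Scarb2, a protein of the lysosomal membrane, was also higher. The sialidase Neu1 fell from 66.6 ± 1.68 to 46.9 ± 5.21 FPKM (limma adjusted p 0.0154), a call kept in 14 of 18 alternatives. The ceramidase gene Asah1 (limma adjusted p 0.894) and the sphingomyelinase gene Smpd1 (log2 difference 0.43, 0.0623) were among the 6 that did not pass. The call of Smpd1 depends on the processing. Its limma adjusted p was 0.0292 without PGRN KO replicate 6, 0.0279 after correction for gene length and 0.0473 on the TPM scale. Gla passed as lower without replicate 6 (limma adjusted p 0.0128).

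Of the proteases that can cleave PGRN, 3 of 9 tested genes were higher and 2 were lower (median 0.12). Leaving out 1 library gave 0 to 3 higher and 1 to 2 lower. The shares over all tested genes were 10.4% and 13.8% with all libraries. The lysosomal cathepsin gene Ctsd rose from 1372 ± 15.7 to 2592 ± 535 FPKM (log2 difference 0.90, limma adjusted p 0.00987), a call kept in 16 of 18 alternatives (0.0549 without WT replicate 1). Ctsk rose from 109.8 ± 4.95 to 181.5 ± 30.8 FPKM (limma adjusted p 0.0117, and 0.0638 and 0.0543 without WT replicates 1 and 2), and Ctsb was higher as well. The secreted metalloprotease gene Mmp9 fell from 1.79 ± 0.204 to 0.320 ± 0.138 FPKM (log2 difference -1.08, limma adjusted p 0.00211), and it reached the mean of 1 FPKM needed for testing only through WT. Mmp12 fell from 371 ± 25.0 to 280.5 ± 15.7 FPKM (limma adjusted p 0.0302), a call kept in 10 of 18 alternatives. Neutrophil elastase (Elane), the protease against which SLPI shields PGRN, was listed at 0 in all libraries.

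Of the relatives of SLPI and other serine protease inhibitors, 2 of 7 tested genes were higher and none was lower (median 0.07). Leaving out 1 library gave 2 to 3 higher and 0 to 1 lower. The shares over all tested genes were 10.4% and 13.8% with all libraries. Serpinb1a, an intracellular inhibitor of neutrophil proteases, rose from 15.4 ± 0.336 to 36.5 ± 4.46 FPKM (log2 difference 1.18, limma adjusted p 0.00140). Serpinb6a rose from 14.2 ± 0.472 to 29.4 ± 7.46 FPKM (log2 difference 0.97, limma adjusted p 0.00867). Serpinb genes form a family of similar sequences, so that fragments could be split between copies.

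Of the proximal signalling genes of the TNF receptors, 1 of 11 tested genes was higher (Birc2) and 3 were lower (Fadd, Adam17 and Ripk1). Their median log2 fold change was -0.19 over the 11. With 1 library left out, 0 to 1 were higher and 0 to 3 lower. Over all tested genes, 10.4% were higher and 13.8% lower with all libraries. Adam17, the sheddase that releases TNF and its receptors from the cell surface, fell from 25.1 ± 0.911 to 18.9 ± 1.34 FPKM (log2 difference -0.39, limma adjusted p 0.0217), a call kept in 12 of 18 alternatives. The adaptor gene Fadd fell from 3.82 ± 0.183 to 2.67 ± 0.157 FPKM (limma adjusted p 0.0198), and Birc2, which encodes a ubiquitin ligase of the receptor complex, rose from 2.25 ± 0.281 to 3.21 ± 0.156 FPKM (limma adjusted p 0.0360). Both calls were kept in 10 of 17 alternatives. Tnf itself had means of 7326 (WT) and 5876 FPKM (PGRN KO) and did not pass (limma adjusted p 0.365).

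Beside Tmem106b, the list of its family and of the lysosomal membrane had 10 tested genes, of which 3 were higher and 1 was lower (median 0.18). The numbers were 0 to 4 higher and 0 to 1 lower with 1 library left out. Over all tested genes, 10.4% were higher and 13.8% lower with all libraries. Both relatives of Tmem106b were higher. Tmem106a rose from 37.9 ± 3.50 to 58.7 ± 6.09 FPKM (log2 difference 0.61, limma adjusted p 0.0117, and 0.0598 and 0.0537 without WT replicates 1 and 3). Tmem106c rose from 1.43 ± 0.251 to 2.38 ± 0.249 FPKM (limma adjusted p 0.0256), a call kept in 13 of 17 alternatives. The cholesterol transporter gene Npc1 fell from 37.1 ± 0.855 to 23.8 ± 5.84 FPKM (limma adjusted p 0.0394), a call kept in 10 of 18 alternatives.

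Of the ligands and relatives of GPNMB and the MiT/TFE factors that act on lysosomal genes, 1 of 7 tested genes was higher (Atp6v0d2) and 2 were lower (median 0.15). Leaving out 1 library gave 0 to 2 higher and 1 to 3 lower. The shares over all tested genes were 10.4% and 13.8% with all libraries. Cd44, a surface receptor that binds GPNMB, fell from 103.1 ± 5.84 to 56.0 ± 6.31 FPKM (log2 difference -0.87, limma adjusted p 0.00356), opposite to Gpnmb. The heparan sulfate proteoglycan gene Sdc4 fell from 223 ± 33.0 to 157.5 ± 20.0 FPKM (limma adjusted p 0.0499), a call kept in 10 of 18 alternatives. Atp6v0d2, a proton pump subunit, rose from 44.2 ± 2.49 to 54.9 ± 1.76 FPKM (limma adjusted p 0.0407), likewise kept in 10 of 18. The factors Mitf, Tfe3 and Tfec did not pass with all libraries, and Tfeb, below a mean of 1 FPKM, was not tested. Tfe3 passed as lower without PGRN KO replicate 6 (limma adjusted p 0.0481) and Tfec as higher after correction for gene length (0.0335). Neither Tfe3 nor Tfec passed on the TPM scale (limma adjusted p 0.385 and 0.106). Of the genes of neuronal ceroid lipofuscinosis, the lysosomal storage disease that complete loss of PGRN causes in humans, 8 were tested. Of these, 2 were higher (Cln3 and Tpp1) and 1 was lower (Cln8), with a median of -0.04 over the 8. These calls were kept in 10 to 13 of 18 alternatives. With 1 library left out, 0 to 3 of the list were higher and 0 to 3 lower.

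**Figure D5:**
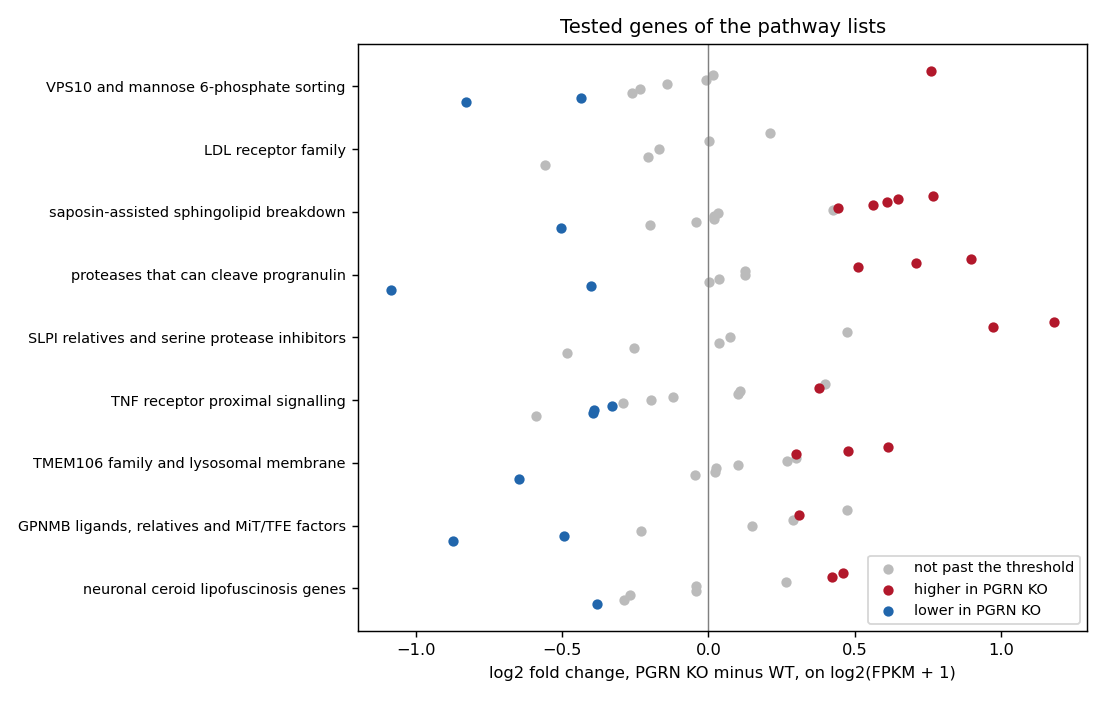
Log2 fold change on log2(FPKM + 1) of each tested gene in the 9 pathway lists, which hold no members (red: higher in PGRN KO, blue: lower, grey: not past an adjusted p of 0.05). Of the 77 genes, 18 are higher and 12 lower, whereas 10.4% of all tested genes are higher and 13.8% lower. On the TPM scale 18 are higher and 5 lower, whereas 10.3% and 6.68% of all tested genes are.

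Markers of other cell types also differed between the genotypes. The summed level of 6 mast cell markers was 2.29 to 3.19 FPKM in WT and 9.72 to 14.0 FPKM in PGRN KO. Most of it was Tpsb2 (means 1.08 and 5.14 FPKM) and Cma1 (0.789 and 4.21 FPKM). Cpa3, Mcpt4 and Fcer1a also had higher means in PGRN KO, but Kit had a lower one (0.345 and 0.210 FPKM). The sum of 5 B cell markers was 1.50 to 2.49 FPKM in WT and 6.62 to 8.92 FPKM in PGRN KO. No count of calls is given for these lists, since Cma1, Cd79a and Cd79b reached the mean of 1 FPKM needed for testing only through PGRN KO. The sum of 5 dendritic cell markers was 27.4 to 34.6 and 15.9 to 19.3 FPKM, nearly all of it Ccr7, which was lower, and that of 6 markers of small peritoneal macrophages or monocytes was 247 to 262 and 137 to 236 FPKM. Most of the latter sum was H2-Ab1, which had 203 to 217 FPKM in WT and 118, 107 and 194 FPKM in PGRN KO replicates 4, 5 and 6. It did not pass with all libraries (limma adjusted p 0.0695). It passed as lower without replicate 6 (log2 difference -0.91, limma adjusted p 0.000517). The same held after correction for gene length (0.00732) and on the TPM scale (0.0320), so that its call depends on the processing. Ly6c2 was lower. The sum of 9 neutrophil markers was 48.8 to 53.2 and 21.5 to 26.6 FPKM, nearly all of it S100a8, while Ly6g and Cxcr2 were at 0 in all libraries. In bulk libraries fewer cells of a type and less RNA per cell cannot be told apart. Marker levels do not give the amount of a member's transcript that such cells hold. The part of other cells in the differences of the members was not tested.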

How the data were processed

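Poly(A) RNA of 3 WT and 3 PGRN KO macrophage samples was sequenced with a NEBNext Ultra library kit. The authors aligned reads, counted fragments per gene and deposited FPKM for each library. The submitters' processing notes name CASAVA, HISAT2 2.0.5, featureCounts 1.5.0-p3 and DESeq2 1.20.0 with GRCm38, and the methods text names HISAT and HTSeq in their place, so that the tools behind the table are not settled. Replicates were not pooled.

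FPKM times the deposited gene length gave whole fragments for 100% of the values above 0 (tolerance 0.001), which were used for depth, for intervals (counting error only, since reads are not independent molecules) and for limma voom as an alternative. The authors' divisor per library was 0.925 to 1.09 times the sum of fragments, so the values were already scaled between libraries.

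Values were analysed as log2(FPKM + 1) with limma 3.58.1 (R 4.3.3; moderated test with a variance trend, no covariates) over 8882 genes that averaged 1 FPKM or more. The threshold was a Benjamini-Hochberg adjusted p of 0.05. A count model was not the main test because the deposited values are not counts. All pairs of libraries differed beyond sampling noise (lowest chi-square per degree of freedom 4.87), so none was taken for the same library deposited again; this does not show separate cultures or animals. The limma script was tested on simulated data.

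The alternatives were pseudocounts of 0.1 and 0.01, no filter, a mean FPKM of at least 5, a TPM scale, the sum of fragments as library size, quantile normalization, a loess correction for gene length (span 0.5), no variance trend, sample quality weights, voom and leaving out each library. The length correction without PGRN KO replicate 6 was chosen after seeing the data. The members, pathway lists and markers were chosen with earlier results of these data known. Named were all members, the 2 genes of each list with the largest log2 fold change past the threshold in each direction, the 3 tested genes nearest to each member past the threshold, and markers at their values. Other list genes are named only to complete a count, and some that are counted are not reported here by name. By identifier, 99.8% of the table matched GENCODE M21 (GRCm38). Promoters came from RefSeq (GRCm38.p6).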

Additional observations from a re-analysis of the deposited data

How the results depend on the processing

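No paired analysis was possible because no replicate number occurs in both genotypes. Grn, Psap and Gpnmb were past the threshold in 18 of 18 alternatives and Sort1 in 17 of 17, since it falls below a mean FPKM of 5, with limma adjusted p of at most 6.2e-05, 0.0445, 0.0147 and 0.0249. Members past the threshold numbered 4, and 3 to 6 over the alternatives (4 to 5 with 1 library left out). Tnfrsf1a passed in 7 of 18 alternatives, Tnfrsf1b in 1 (sample quality weights, limma adjusted p 0.0348) and Lrp1 in 1 (length correction without PGRN KO replicate 6, 0.0432).

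The log2 difference of Lrp1, -0.21 with all libraries, was 0.03 after correction for gene length, 0.085 with quality weights (0.0899 for PGRN KO replicate 6), 0.11 without that library and 0.17 with the length correction without it, and -0.38 to 0.11 with 1 library left out. That of Slpi was -0.052 with weights, -0.084 without PGRN KO replicate 6 and -0.066 with the length correction without it, and -0.084 to 0.265 with 1 library left out. The cause was not tested.

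All genes past the threshold numbered 2151, and 1366 without a filter (where more genes are adjusted together), 4225 with weights, 3664 with the length correction without PGRN KO replicate 6, and 713 to 3668 with 1 library left out. Of the calls 42.8% were higher, and 60.6% on the TPM scale. Pathway list genes past the threshold numbered 30, and 15 without a filter, 47 with weights and 7 to 43 with 1 library left out. For the 36 other named genes, 544 values kept their call, 94 lost it and 0 changed direction. Depth limits Sort1 and Tmem106b most.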

Other observations

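The tested genes nearest to each called member were taken by the Euclidean distance between profiles over the 6 libraries, on log2(FPKM + 1) centred on the gene mean, where 0 is an identical profile. This describes likeness over 6 libraries that differ in genotype and share it. Nearest to Gpnmb was Gaa, the lysosomal acid alpha-glucosidase (distance 0.080), followed by Rbm43 (0.120) and B430306N03Rik (0.150), against a median of 1.67 over all tested genes. Gaa was at 37.7, 37.0 and 37.2 FPKM in WT replicates 1, 2 and 3, against 86.7, 88.0 and 96.6 FPKM in PGRN KO replicates 4, 5 and 6. Gaa was picked for its likeness to Gpnmb in these libraries, so its difference between genotypes follows from that choice and is no separate evidence. The same holds for the genes nearest to Psap and Sort1.

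Nearest to Psap were Nagk, the kinase of N-acetylglucosamine (0.099), Tapbpl (0.137) and Ms4a8a (0.152), against a median of 1.29. Nagk was at 2.91, 2.81 and 2.86 FPKM in WT and at 5.58, 5.64 and 7.42 FPKM in PGRN KO, with replicate 6 the highest, as for Psap. Nearest to Sort1 were Zbtb5 (0.123), Rtl5 (0.139) and Crot, a peroxisomal carnitine acyltransferase (0.145), against a median of 1.09, each with replicate 6 the lowest of the PGRN KO libraries. No tested gene was close to Grn. The nearest, Ms4a4a, lay at a distance of 7.57. Among members, the closest pairs were Tmem106b and Tnfrsf1b at 0.28 and Slpi and Tnfrsf1a at 0.39, none of which passed the threshold, followed by Psap and Gpnmb at 0.43 and Sort1 and Psap at 0.48.

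The remaining marker lists were low in both genotypes, with sums of 19.9 to 23.9 FPKM in WT and 19.7 to 24.1 FPKM in PGRN KO for 6 markers of large peritoneal macrophages (of which Icam2 rose from 3.10 to 5.10 FPKM, limma adjusted p 0.00914), 2.60 to 3.46 and 2.95 to 5.84 FPKM for 6 markers of T or NK cells, at most 0.249 and 0.0863 FPKM for 4 eosinophil markers, and 0.491 to 0.561 and 0.734 to 1.39 FPKM for 6 markers of mesothelial cells or fibroblasts.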
